A study of Rattus norvegicus with 8 samples.

Results

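The 10 genes described here encode core parts of the autophagy machinery: Ulk1, Becn1, Atg5, Atg7, Atg9a, Map1lc3a, Map1lc3b, Gabarap, Gabarapl1 and Sqstm1. They were chosen by name, for their known roles in starting the autophagosome, in lipid conjugation and in cargo binding; the rule uses no measured value, though it was written with earlier results of these data known. All 10 were found among the 26405 genes in each of 2 deposited tables, 8 by the gene symbol given there. Map1lc3b (ENSRNOG00000017905) and Sqstm1 (ENSRNOG00000003147) have an empty symbol cell in the tables and were matched through their Entrez identifiers.

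Autophagy encloses cytoplasm, damaged organelles and protein aggregates in a double membrane, the autophagosome, which then fuses with lysosomes. A kinase complex and a lipid kinase complex start the membrane, conjugation enzymes attach proteins of the LC3 and GABARAP families to it, and cargo receptors link ubiquitin-marked material to those proteins. In neurons, autophagosomes are known to form in distal axons and to travel toward the cell body as they mature.

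The cells were hippocampal neurons from rat embryos, cultured for 10 to 14 days in microfluidic chambers, in which axons grow into a compartment of their own and can be treated apart from the cell bodies. In every sample only the axons received an agent, for 24 h: soluble oligomers of Abeta(1-42), the amyloid peptide of Alzheimer's disease, or the vehicle. RNA was sequenced separately from the axonal and the cell body (somatic) compartments, which gave 8 samples in 4 groups of 2: axons with Abeta, axons with vehicle, cell bodies whose axons had Abeta, and cell bodies whose axons had vehicle. The labels name no genotype, strain or animal. They do not state whether duplicates were separate cultures or repeats of 1 culture. The p-values thus weigh a difference only against the spread among samples such as these, and that spread may be technical.

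Each table holds the authors' own comparison of the treatments within 1 compartment. Neither names which treatment is the numerator, so directions are given below as the positive or the negative side of the fold change, and neither side can be equated with Abeta. The mean counts in the tables carry enough digits to recover the whole reads of each of the 4 libraries behind a gene; this tells which side a library is on, not which sample it is. Libraries are numbered 1 and 2 within a side by size factor, the larger first; their values describe the data and enter no test. The axonal libraries were shallow, with 212811 to 405381 recovered reads, and the somatic libraries were unequal, with 2671091 and 3620740 reads in the deep library of each side and 261323 and 288143 in the other. All 10 genes had exactly 1 solution in both tables. In the authors' deposited axonal table only 1321 genes, 5.53% of the 23879 with reads, have an adjusted p, and the lowest mean among them is 44.8 normalized counts. Normalized counts are reads divided by a library's size factor and are not corrected for gene length, so levels are compared between libraries and not between genes.

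Sqstm1 was the member called different in axons. It encodes p62, a cargo receptor that binds ubiquitin on one side and LC3 on the other and is itself degraded with its cargo. In axons its normalized count was 120 and 146 on the positive side against 30.5 and 47.3 on the negative, from 346 and 64 reads in all. Both positive-side libraries lay far above both negative-side libraries, with no overlap. In the authors' deposited table its log2 fold change was 1.67 with a standard error of 0.52, which is a 3.18-fold difference with a 95% interval, from that error, of 1.56 to 6.47 and a DESeq2 adjusted p of 0.0137. Among the 1321 axonal genes with an adjusted p, 116 or 8.78% were called on the positive side. The call rests on that choice of genes: when the authors' deposited p-values were adjusted by Benjamini-Hochberg over genes whose mean is 10 or more, that of Sqstm1 became 0.0726, and over every gene with reads 0.207. In these bulk samples, fewer cells of a type and less RNA per cell cannot be told apart.

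The 250 bases before the start of Sqstm1, and those before Atg5, the member with the largest deposited axonal fold change, are shown because Sqstm1 was the member called and Atg5 was counted almost only on 1 side. They are from RefSeq on build GRCr8, Sqstm1 at chr10:35037751-35038000 on the minus strand with 65.2% GC and Atg5 at chr20:49380585-49380834 on the plus strand with 59.6% GC. Capitals mark a TATA box (TATAAA) 30 bases before the start of Sqstm1 and an E-box (CACGTG) 19 bases before the start of Atg5.
Sqstm1: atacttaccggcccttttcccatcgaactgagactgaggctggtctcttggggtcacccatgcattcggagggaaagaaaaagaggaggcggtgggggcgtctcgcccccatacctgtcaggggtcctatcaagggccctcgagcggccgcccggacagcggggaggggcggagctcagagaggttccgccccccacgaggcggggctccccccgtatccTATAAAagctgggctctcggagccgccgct
Atg5: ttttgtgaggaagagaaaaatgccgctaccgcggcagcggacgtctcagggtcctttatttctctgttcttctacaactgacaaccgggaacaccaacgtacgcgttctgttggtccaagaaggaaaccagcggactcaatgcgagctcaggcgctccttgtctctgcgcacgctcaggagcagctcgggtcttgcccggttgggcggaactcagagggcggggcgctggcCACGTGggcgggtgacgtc
The table of promoters matched 7 of the 10 members; Becn1, Atg9a and Map1lc3a were not in it. Among these 7 windows, searched on both strands, 1 held the E-box, 2 held the TATA box (Sqstm1 and Gabarapl1) and 1, Gabarap, held TGACNNNGC, the core of the antioxidant response element. Of 33469 promoters of the same length, 5.59% held the E-box, 12.9% the TATA box and 10.1% TGACNNNGC. No window held more than 1 match, so no matches overlap, and a match is a description of the sequence only.

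**Figure D1:**
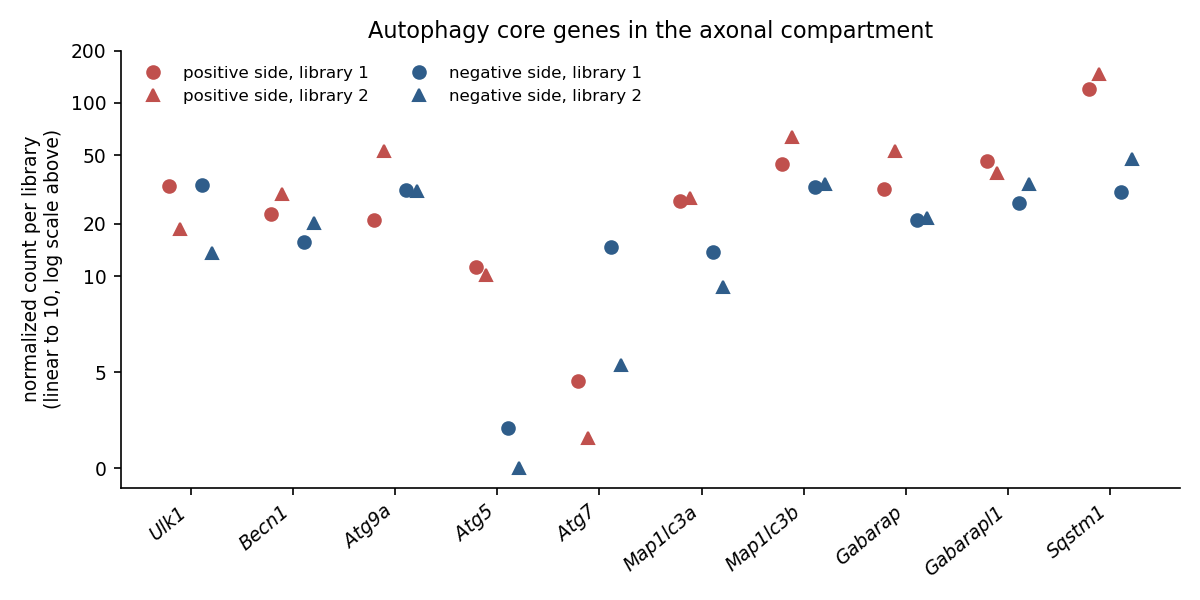
Normalized counts of the 10 autophagy core genes (x axis) in the 4 axonal libraries (y axis, normalized count per library, linear to 10 and on a log scale above); red points are the positive-side libraries, blue points the negative-side libraries, circles library 1 and triangles library 2. Sqstm1 lies at 120 and 146 on the positive side against 30.5 and 47.3, while the libraries of Ulk1 and Atg9a overlap.

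Ulk1 and Becn1 start the process, and neither had a difference beyond its error in axons. Ulk1 (ENSRNOG00000037505), the kinase that receives the nutrient signals, held 33.3 and 18.8 normalized counts on the positive side against 33.6 and 13.5 on the negative. The sides overlapped, with the libraries of each side as far apart as those of different sides. Its log2 fold change in the authors' deposited table was 0.11 with a standard error of 0.75 (p = 0.878 from DESeq2). Becn1 (ENSRNOG00000020513), a subunit of the lipid kinase complex, held 22.7 and 29.7 on the positive side against 15.8 and 20.3 on the negative. These sides did not overlap, yet the nearest libraries differed by only a few counts. In the authors' deposited table its log2 fold change was 0.47 with a standard error of 0.74 (DESeq2 p = 0.528).

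Atg9a (ENSRNOG00000018975), the membrane protein whose vesicles seed the autophagosome, held 21.2 and 52.4 on the positive side against 31.5 and 31.1 on the negative. The 2 positive-side libraries lay below and above both of the others. The authors' deposited table gives a log2 fold change of 0.21 with a standard error of 0.68 (DESeq2 p = 0.763). Without positive-side library 2 the log2 ratio of the side means was -0.56, so the direction of Atg9a rests on that library; that of Ulk1 also turned with 1 library left out, with a range of -0.37 to 0.95.

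Atg5 and Atg7 belong to the conjugation machinery that attaches LC3 and GABARAP proteins to lipid, and their axonal values lay on opposite sides. Both were counted in very few reads. Atg5 (ENSRNOG00000000322), which forms part of the ligase, held 11.3 and 10.2 normalized counts on the positive side against 2.1 and 0 on the negative. This is 28 reads against 2, and the 0 reads in negative-side library 2 allow up to 4.05 normalized counts, the value of 3 reads there. The ratio of the sides, as summed reads over summed size factors, was 9.11 with an interval from 2.3 to 78.9 that covers counting error only. On the log2 scale the ratio of the mean normalized counts of the sides was 3.36. The authors' deposited table gives a log2 fold change of 1.88 with a standard error of 1.04 (DESeq2 p = 0.0701), which did not pass the test even unadjusted. For every member the deposited axonal value was nearer 0 than this ratio, by little for Sqstm1 (1.67 against 1.78). Deposited folds and their intervals are thus not plain ratios of the counts, least so for genes with few reads. Atg7 (ENSRNOG00000007486), the enzyme that activates the LC3 and GABARAP proteins, held 4.54 and 1.57 on the positive side against 14.7 and 5.4 on the negative. It was the only one of the 10 members with both negative-side libraries above. Its log2 fold change in the authors' deposited table was -1.13 with a standard error of 1.01 (DESeq2 p = 0.261).

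The 4 genes of the LC3 and GABARAP families encode the small ubiquitin-like proteins that are attached to the growing membrane and that cargo receptors bind. Each had both positive-side axonal libraries above both negative-side libraries, and none passed the test. Map1lc3a (ENSRNOG00000025443), an LC3 protein, held 27.2 and 28.2 normalized counts against 13.7 and 9.45. Map1lc3b, the form most used to mark autophagosomes, held 44.6 and 63.4 against 32.6 and 33.8. Gabarap (ENSRNOG00000017417), the founder of the sister family, held 31.7 and 52.4 against 21 and 21.6. Gabarapl1 (ENSRNOG00000008498), its close relative, held 46.1 and 39.1 against 26.3 and 33.8. Relative to its level, the gap between the sides was widest for Map1lc3a and narrowest for Gabarapl1. In the authors' deposited table their log2 fold changes were 1.06 with a standard error of 0.77 for Map1lc3a (DESeq2 p = 0.172), 0.64 with 0.61 for Map1lc3b (p = 0.294), 0.87 with 0.68 for Gabarap (p = 0.199) and 0.46 with 0.64 for Gabarapl1 (p = 0.473). The mean of Map1lc3b, 43.6 normalized counts, fell just short of the level at which the authors' deposited table begins to give an adjusted p. Reads shared between close relatives in these families can be split by the counting, which is not given in the sources used here.

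Across the 10 members in axons, 1 had an adjusted p and was called (Sqstm1), and 9 had none. With unadjusted DESeq2 p under 0.05 there was also 1, against 4.45% of all axonal genes with reads in either direction. The members' log2 fold changes in the authors' deposited table ran from -1.13 to 1.88 with a median of 0.55, and 9 lay above 0. Without Sqstm1 the median was 0.47. Over all axonal genes with reads the median was -0.13, but it depends on the level: it was 0.15 for genes whose axonal mean is 10 or more, and 0.44 for the 2683 genes whose somatic mean is 100 or more, called well expressed below, of which 76.6% lay above 0. Of the members, 7 are well expressed by that measure; their median was 0.64, and 6 lay above the median of such genes.

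Sides that do not overlap were common among axonal genes. Both positive-side libraries lay above both negative-side libraries for 7 of 10 members, 1 lay the other way and 2 overlapped. Among the 8 members whose axonal mean is 10 or more the count was 6, against 30.7% of 7824 such genes. Among the 7 well expressed members it was also 6, against 47.8% of 2538 such genes. When the log2 fold changes in the authors' deposited table were centred on the median of the well expressed genes, that of Sqstm1 became 1.23 with an adjusted p of 0.0816. Those of Becn1 and Gabarapl1 became 0.03 and 0.02.

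**Figure D2:**
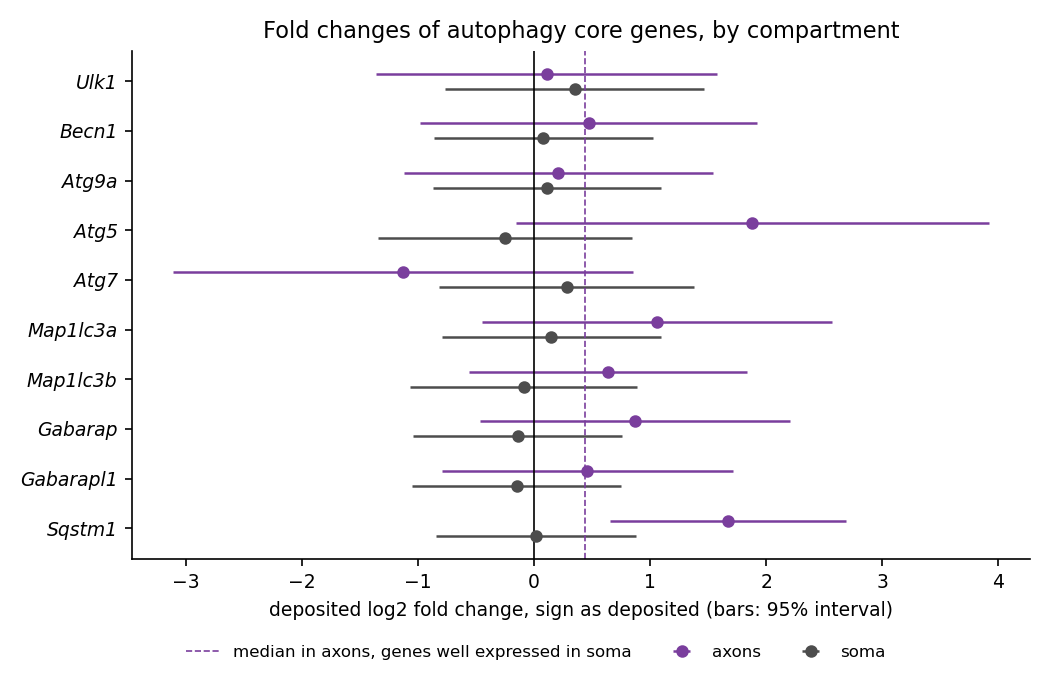
Log2 fold change of each autophagy core gene (y axis) as deposited (x axis, sign as deposited) in axons (purple) and soma (grey); bars span the 95% interval from the standard error, and the dashed line is the axonal median of 0.44 over well expressed genes. The axonal bar of Sqstm1, around 1.67, is the only bar drawn that does not cross 0.

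In the cell bodies no autophagy core gene was called different between the sides. Sqstm1 held 509 and 431 normalized counts on the positive side against 502 and 425 on the negative. The 2 sides were nearly level. In the authors' deposited somatic table its log2 fold change was 0.02 with a standard error of 0.44, a fold of 1.01 with a 95% interval of 0.554 to 1.85. All 10 members have an adjusted p there, each equal to 1, and 0 were called with DESeq2, against 0% of the 18995 somatic genes. None had an unadjusted p under 0.05 either, where the whole somatic table has 2; the smallest among the members was 0.537, for Ulk1.

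The somatic log2 fold changes of the members ran from -0.25 to 0.35 in the authors' deposited table, with a median of 0.05, 6 above 0 and 4 below. Log2 ratios of the recovered side means reached further, to -0.46 for Atg5 and 0.59 for Ulk1. For all 10 the libraries of the sides overlapped. Both positive-side libraries lay above the others for 0 of 10 members, against 7.43% of 11040 somatic genes whose mean is 10 or more. Map1lc3a held 154 and 114 against 137 and 97, and Gabarapl1 held 265 and 219 against 317 and 235. Gabarap held 193 and 152 against 217 and 172. For these 3 genes the deep and shallow libraries differed more on average than the sides did.

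**Figure D3:**
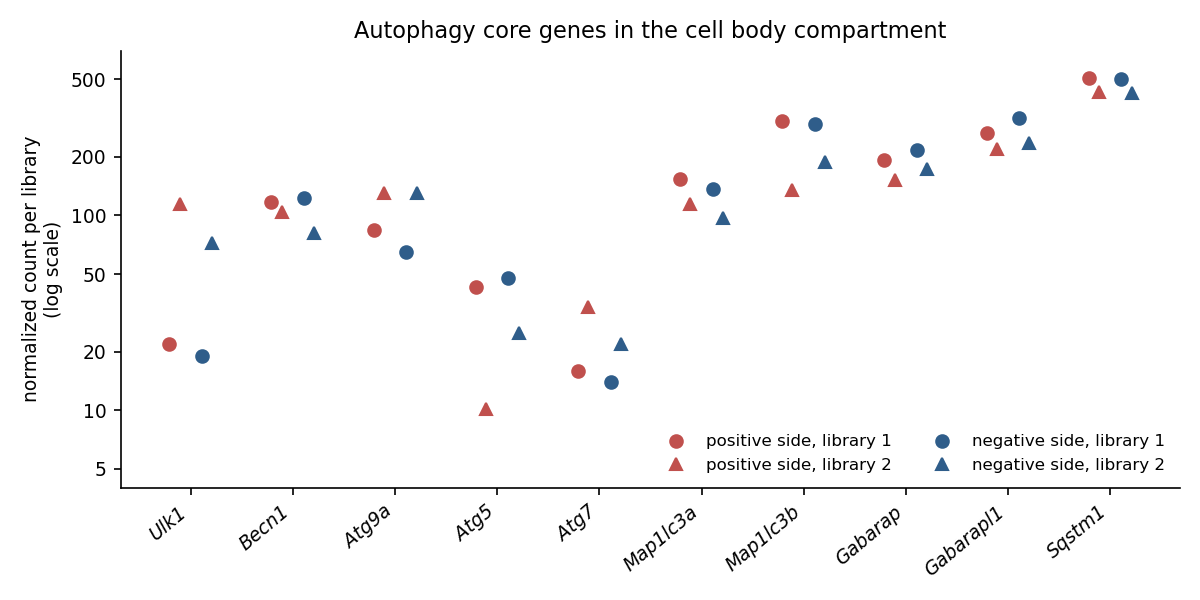
Normalized counts of the 10 autophagy core genes (x axis) in the 4 somatic libraries (y axis, normalized count per library, log scale); red is the positive and blue the negative side, circles the deep library of each side and triangles the shallow one. Sqstm1 lies between 425 and 509 in all 4 libraries, while Ulk1 is near 20 in the deep libraries and at 114 and 71.9 in the shallow ones.

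The somatic libraries of unequal depth differed from each other for several members, in the same way on both sides. Ulk1 held 21.9 and 19 normalized counts in the deep libraries of the positive and negative sides and 114 and 71.9 in the shallow ones, a log2 ratio of shallow over deep of 2.19, above 96.7% of genes. Atg5 went the other way, with 42.8 and 47.8 in the deep libraries and 10.1 and 25 in the shallow ones. Its log2 ratio was -1.37, and only 6.69% of genes fell below it. The shallow values rest on few reads, 34 and 23 for Ulk1 and 3 and 8 for Atg5, positive side first. Counting error was thus large for Atg5 and was not separated from depth. In all, 3 members (Ulk1, Atg7 and Atg9a) were higher in both shallow libraries than in the deep library of the same side, and 7 were lower in both. The median of the log2 ratio over 11026 somatic genes was -0.08, with a 5th to 95th percentile range of -1.49 to 1.89. The share of somatic genes that differ by depth in the same way on both sides was not counted. The 3 and 7 members are therefore not read as a trait of these genes. Fold changes within the deep pair were 0.21 for Ulk1 and -0.16 for Atg5 on the log2 scale, and within the shallow pair 0.67 and -1.31, all from recovered reads with no test.

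The difference between the compartments asks whether the axonal fold change departs from the somatic one. Its z test combines the standard errors of both tables as if axonal and somatic samples were independent, which could not be checked. For Sqstm1 the axonal minus somatic difference in log2 fold change was 1.65 with a standard error of 0.69 (z test on the authors' deposited values, p = 0.016). After Benjamini-Hochberg adjustment over 18406 genes its p was 1, and 0 of 10 members passed, against 0.0326% of all genes. By the same z test on the authors' deposited values, Atg5 had the highest difference among the members, 2.13 with a standard error of 1.18 (p = 0.071), and Atg7 the lowest, -1.41 with 1.15 (p = 0.222). For the 4 LC3 and GABARAP genes it ran from 0.61 for Gabarapl1 to 1.01 for Gabarap, with standard errors from 0.79 to 0.91. The Sqstm1 call in axons is thus not shown to differ from its value in the cell bodies once adjusted.

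The 10 members were detected in both compartments, each with a lower mean in the axonal table than in the somatic table. The tables were normalized separately, so the ratio of the means is read against the other genes only. The median gene had an axonal mean of 27.7% of its somatic mean, over 11157 genes. Gabarapl1 stood at 14%, Map1lc3a at 15.6%, Gabarap at 17.3%, Sqstm1 at 18.4%, Atg5 at 18.8%, Map1lc3b at 18.9% and Becn1 at 20.8%, all below the median. Atg7 at 30.7%, Atg9a at 33.1% and Ulk1 at 43.6% lay above it. Thus all 4 LC3 and GABARAP genes had a lower share than the median gene, and the 3 members above it were the same 3 that were higher in the shallow somatic libraries; both measures use the somatic values.

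Other genes of the pathway were taken from a list of 61 by role, of which 60 matched, Calcoco1 under 2 identifiers. In axons 7 of these 61 identifiers have an adjusted p, and 1 was called in the authors' deposited table, on the positive side, beside 8.78% of all axonal genes with an adjusted p. The gene called was Tax1bp1 (ENSRNOG00000008393), a cargo receptor that like p62 binds ubiquitin and LC3 proteins. Its axonal libraries held 67.3 and 94.7 normalized counts against 21 and 12.2, from 210 and 29 reads. The sides did not overlap. In the authors' deposited table its log2 fold change was 2.06 with a standard error of 0.62 (DESeq2 adjusted p = 0.012); adjusted over genes whose mean is 10 or more it was 0.0639, and over every gene with reads 0.184. In the cell bodies it held 278 and 104 against 364 and 119, and its log2 fold change there was -0.24 with a standard error of 0.53.

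By role, the axonal medians of these other genes in the authors' deposited table were 0.68 for 4 initiation genes, 0.20 for 7 genes of the lipid kinase complex and -0.15 for 6 lipid transfer and WIPI genes. They were -0.17 for 10 conjugation genes, 0.46 for 11 cargo receptor identifiers, 0.03 for 11 fusion genes and 0.60 for 12 regulators. All 4 initiation genes, 10 of 11 cargo receptor identifiers and 5 of 10 conjugation genes lay above 0, beside 43.7% of all axonal genes with reads and 76.6% of well expressed ones. The lists differ in level, with an axonal mean of 10 or more for 3, 10 and 4 of these genes, and differences between roles were not tested. For the 61 together the median was 0.34, with 43 above 0 and 18 below, 2 with an unadjusted p under 0.05 (Tax1bp1 and Vcp), and 24 with both positive-side libraries above. Of the 43 whose axonal mean is 10 or more, 19 had that pattern, beside the 30.7% given above for all such genes. In the cell bodies 0 of 60 were called with DESeq2 and 0 had an unadjusted p under 0.05; the median was -0.09 and the range -0.56 to 0.45.

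Vcp (ENSRNOG00000034242), the ATPase that extracts ubiquitin-marked proteins, came next to the threshold in axons with a log2 fold change of 1.17, a standard error of 0.48 and a DESeq2 adjusted p of 0.0594 in the authors' deposited table. Its axonal libraries held 149 and 171 normalized counts against 57.8 and 78.3. Wipi1, a lipid-binding protein of the forming membrane, had a log2 fold change of 1.41 with a standard error of 0.72 in the authors' deposited table (p = 0.0503). For Bnip3l, a receptor for mitochondria, the authors' deposited table gives 1.43 with 0.77 (p = 0.0654), and for Vps41, a tethering subunit for fusion with lysosomes, 1.36 with 0.79 (p = 0.0858). Atg10, the enzyme that transfers Atg12 to Atg5, had the lowest value of the list in the authors' deposited table, -1.68 with 1.04 (p = 0.109). Nfe2l2, a transcription factor of the oxidative stress response known to act on Sqstm1, had 1.29 with 0.85 in the authors' deposited table (p = 0.13). None of these 6 was called, and only Vcp has an adjusted p, so the others could not be called.

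**Figure D4:**
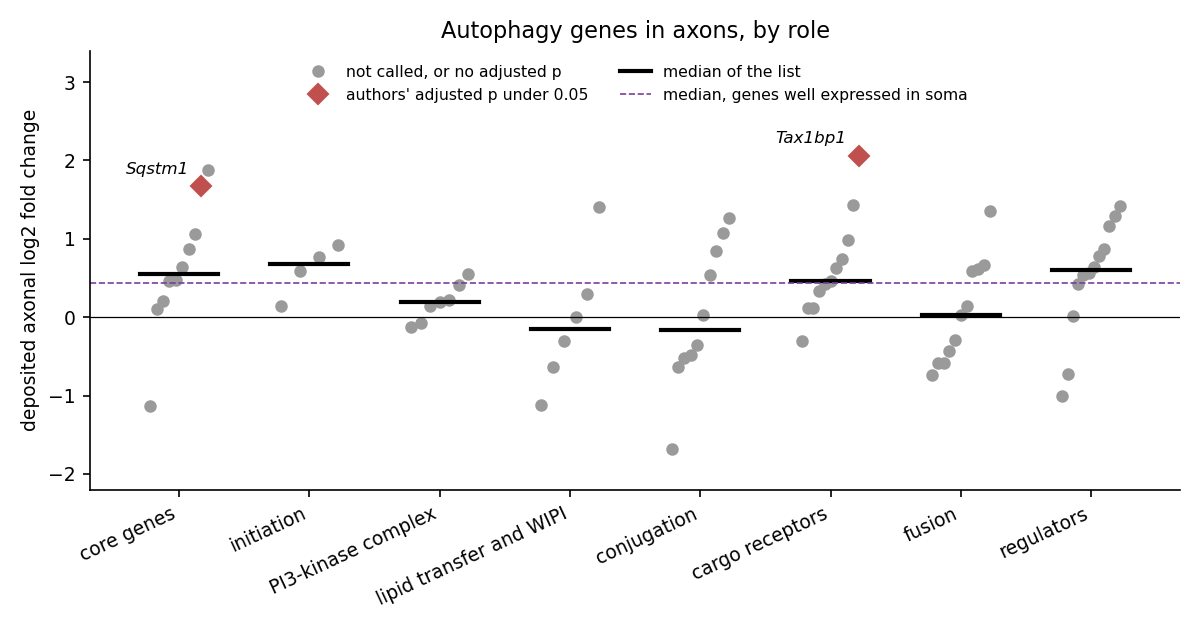
Deposited axonal log2 fold changes (y axis, sign as deposited) of the autophagy core genes and of other autophagy genes by role (x axis); each point is 1 gene identifier, diamonds have an authors' adjusted p under 0.05, thick bars are list medians and the dashed line is the median of 0.44 over well expressed genes. Sqstm1 at 1.67 and Tax1bp1 at 2.06 are the 2 diamonds, and the medians run from -0.17 for conjugation to 0.68 for initiation.

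Most astrocyte markers and some fibroblast markers were called on the same axonal side as Sqstm1, while most microglia markers lay on the other side. Of 11 matched astrocyte markers 8 have an adjusted p and 6 were called on the positive side in the authors' deposited table. Among all axonal genes with an adjusted p, 8.78% were called on that side. The 6 include Gfap, Vim and Slc1a3, the 3 of highest mean. Slc1a2 alone lay below 0, at -0.82, with both negative-side libraries above, and the sides of S100b overlapped. The astrocyte list's summed normalized counts were 3632 and 4072 against 661 and 1063. Of 9 fibroblast markers 5 have an adjusted p and 4 were called on the positive side, among them Sparc, Col1a1 and Fbln1, the 3 of highest mean. The other 5 fibroblast markers (Col3a1, Dcn, Lum, Pdgfra and Fbn1) lay below 0 in the authors' deposited table, from -0.05 to -0.59, 3 of them with both negative-side libraries above, and the list median was -0.05. The fibroblast sums were 1500 and 2239 against 338 and 340, of which Sparc gave 836 and 1217 on the positive side. For Sparc, Gfap and Vim, with means above 500, recovery is less sure, since altered means of that size also had solutions in 15.4% of cases. Of 8 matched neuron markers 5 have an adjusted p, and 0 were called with DESeq2. Among the 8, 0 had an unadjusted p under 0.05, and sums over 7 of them were 500 and 547 against 346 and 656. None of the 8 microglia markers has an adjusted p, so none could be called. Of these markers 6 lay below 0, while 43.7% of all axonal genes with reads lay above 0. An unadjusted DESeq2 p under 0.05 was found for 2 of them, against 4.45% of all axonal genes with reads. Only 2 of the 8 have an axonal mean of 10 or more, so most rest on few reads. Their sums were 59.7 and 29 against 99.8 and 149. Oligodendrocyte markers summed to 73.3 and 79 against 63 and 33.8. None of these 8 has an adjusted p either, so none could be called, and 0 had an unadjusted p under 0.05. No matched marker of any of these lists was at 0 in the axonal table. Dendritic and somatic markers were also present there, at 315 and 382 against 254 and 374. Aldh1l1 (astrocyte), Nefm (neuron) and Camk2a (dendrite and soma) were listed but not matched, so they have no value. In the cell bodies the astrocyte sums were nearly equal between the sides, 2947 and 3734 against 2911 and 3575 over 8 markers. The axonal sides also differed in depth, and genes read in axons and never in the cell bodies made up 2.98% and 1.3% of the reads recovered on the positive side, against 6.06% and 5.03% on the negative. The part of these differences in the values of Sqstm1 and the other members was not tested.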

How the data were processed

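RNA from the axonal and cell body compartments was made into TruSeq libraries and sequenced on a MiSeq, per the labels' protocols. The submitters' processing notes name Trim Galore, TopHat2, SAMtools and DESeq2; which genome build and counter were used is not given in the sources used here. Per the file headers, each deposited table gives a mean of normalized counts (a signal value), a log2 fold change and its error, the test statistic (a score) and p-values, raw and adjusted. The columns analysed hold only that comparison, so the authors' deposited adjusted p under 0.05 was the call, in place of a count model.

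Reads per library were recovered from the deposited means as whole reads over fixed size factors (Python 3.11.15, numpy 2.4.6, numba 0.67.0). For means under 500 each gene had exactly 1 solution, and altered means had none. The procedure was also tested on simulated data. The axonal minus somatic difference was tested with a two-sided z test (scipy 1.17.1) on the deposited values. Alternatives were adjustment over genes whose mean is 10 or more or over every gene with reads, centring, scaling by recovered reads in place of size factors, 1 added normalized count, and leaving out each library.

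All members are named; from each other autophagy list, genes called in either table and the 2 of smallest axonal p were eligible, and markers by mean level. The members and lists were chosen with earlier results of these data known.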

Additional observations from a re-analysis of the deposited data

How the results depend on the processing

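The axonal calls rest on which genes share the adjustment. The number of members called was 1 as deposited and 0 with adjustment over genes whose mean is 10 or more, over every gene with reads, or after centring on genes whose somatic mean is 100 or more. For the other autophagy genes it was 1 as deposited, 0 over genes whose mean is 10 or more, 0 over every gene with reads, and 1 after centring, where Tax1bp1 had an adjusted p of 0.043. The first 2 of these adjust over more genes by construction. The share of all axonal genes called under each alternative was not counted, so a lost call is not read as particular to these genes. No member was called in the cell bodies or for the difference between compartments under the alternatives run there. The count of members with both positive-side axonal libraries above was 7 when libraries were scaled by recovered reads. With 1 library left out it was 7 to 8, but leaving out a library cannot lower this count, so that range is no check of it. The log2 ratio of Sqstm1 in axons ran from 1.50 to 2.13 over the alternatives on recovered reads. Of the members' alternative values, 61 in axons and 81 in the cell bodies lay within 1 standard error of the deposited value; 8 and 9 did not, those of Ulk1, Atg5, Atg7, Atg9a and Map1lc3b. No paired analysis was possible because the tables hold no values by replicate number and the recovered libraries could not be matched to samples. Depth limits Atg5 and Atg7 most, with means of 5.9 and 6.55 normalized counts in axons.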
